A study of Homo sapiens with 12 samples.

Results

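The genes described here are 7 components of the plasminogen activation system and its serpin relatives: the activators PLAU and PLAT, the receptor PLAUR, and the serpins SERPINE2, SERPINB2, SERPINB7 and SERPINB8. They were taken by gene symbol from a table of 23497 genes, and all 7 were among the 17114 genes with enough counts to be tested. The RNA came from WM1366, an established NRAS-mutant human melanoma line, and from 3 daughter lines that tolerate paired BRAF and MEK inhibitors. Encorafenib with binimetinib was present in cultures of the EB-resistant line. Vemurafenib with cobimetinib was present in those of the VC-resistant line, and dabrafenib with trametinib in those of the DT-resistant line. The drug-sensitive parent received DMSO. Each of the 4 groups has 3 libraries of polyadenylated RNA, numbered 2, 5 and 6, from independent experiments. Each drug pair is represented by 1 daughter line, so that the line, its history of selection and the drugs present at harvest cannot be told apart.

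Plasmin is a broad serine protease that dissolves fibrin and helps to break down extracellular matrix. It is cut from the inactive precursor plasminogen by the urokinase-type activator (PLAU), which works largely at the cell surface when held by its receptor PLAUR, or by the tissue-type activator (PLAT), which is best known for acting on fibrin. Serpins are inhibitors that trap a protease in an irreversible complex. PAI-2 (SERPINB2) inhibits the plasminogen activators, SERPINE2 (protease nexin-1) inhibits thrombin, plasmin and urokinase, and SERPINB7 and SERPINB8 are intracellular-type clade B serpins whose genes lie in the same chromosome 18 cluster as SERPINB2. Urokinase and its receptor have long been studied in melanoma for their part in invasion.

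The libraries held 40491309 to 54495132 counts assigned to genes. Levels are given as CPM, the count of a gene scaled to a common library size, with totals adjusted by TMM. Of 9 melanocytic marker genes, 5 had a row in the table, and MITF, the melanocyte lineage transcription factor, carried most of their signal at 53.3 ± 3.03 CPM in EB-resistant, 66.4 ± 5.70 CPM in VC-resistant, 66.3 ± 3.30 CPM in DT-resistant and 47.1 ± 5.75 CPM in sensitive cells (SD, n = 3 each). PMEL, a pigment granule protein, and TYRP1 stayed below 1 CPM in all 12 libraries. In EB-resistant, VC-resistant, DT-resistant and sensitive cells PMEL averaged 0.526, 0.379, 0.453 and 0.755 CPM. TYRP1 averaged 0.581, 0.0395, 0.135 and 0.0284 CPM in the same order, so that these genes differed in direction. DCT and S100A1 had too few counts to be tested, and SOX10, MLANA, TYR and S100B had no row in the table used. In bulk RNA, fewer cells making a transcript and less of it per cell cannot be told apart.

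AP-1, a dimer of JUN and FOS family proteins that acts downstream of the ERK pathway, binds a short DNA element, and the promoters of these genes were searched for it. RefSeq promoter windows (GRCh38.p14, the 250 bases before each annotated start) were available for 6 of the 7 genes, in 10 windows, and were read on both strands for TGAGTCA, the AP-1 consensus. It occurred in 4 windows of 3 genes, those of PLAUR, SERPINB8 and both downstream starts of SERPINB7. Of 35116 human promoter windows of that length 4.2% held it, and the difference was not tested. Of these 4 matches, 3 lie within exons annotated in GENCODE release 29, those of PLAUR, SERPINB8 and the more upstream of the 2 SERPINB7 starts. The looser form TGANTCA, which includes the consensus, occurred in 5 of the 10 windows, in 4 genes, and in 6.57% of all windows. This difference was not tested either. In SERPINB2 it was the only form found, and SERPINB8 and both of these SERPINB7 windows held a looser match besides the consensus. The 30 bases around the consensus matches and the SERPINB2 match are shown because they set the serpin neighbours side by side. The match is in capitals, and each is read 5′ to 3′ on its gene's strand.
PLAUR, chr19:43670337-43670366, minus strand: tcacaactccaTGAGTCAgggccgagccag
SERPINB8, chr18:63970042-63970071, plus strand: tcgaacggttcTGAGTCAtctgccggaagc
SERPINB7, chr18:63775368-63775397, plus strand: gtgctgtgctcTGAGTCAtagggaagccat
SERPINB7, chr18:63777725-63777754, plus strand: tagggagtgtcTGAGTCAgaggctttatat
SERPINB2, chr18:63887592-63887621, plus strand: gagtaaaatgtTGAATCActcaaaggacac

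SERPINB2 and SERPINB7 are the members with the widest range of levels across the lines, so a longer stretch before 1 start of each is given, ending where the GENCODE release 29 exon begins and with every TGANTCA match in capitals.
SERPINB2, chr18:63887455-63887699, plus strand: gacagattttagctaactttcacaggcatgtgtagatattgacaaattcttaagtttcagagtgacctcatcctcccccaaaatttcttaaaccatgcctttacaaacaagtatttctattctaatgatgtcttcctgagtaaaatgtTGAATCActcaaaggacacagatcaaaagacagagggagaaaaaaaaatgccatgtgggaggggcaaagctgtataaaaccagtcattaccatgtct
SERPINB7, chr18:63777531-63777776, plus strand: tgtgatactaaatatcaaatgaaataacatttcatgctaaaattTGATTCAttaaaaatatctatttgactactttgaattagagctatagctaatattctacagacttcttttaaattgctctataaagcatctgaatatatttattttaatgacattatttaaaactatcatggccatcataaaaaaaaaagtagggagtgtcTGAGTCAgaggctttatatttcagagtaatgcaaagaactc
The PLAU windows held none of the motifs searched, which also included TGACGTCA and CACGTG. All 250 bases of each PLAU window lie within exons annotated in GENCODE release 29. CACGTG occurred in 1 window, before a SERPINE2 start, and in 6.34% of all windows, which was not tested. A match describes the letters in the window and says nothing about binding in these cells.

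Urokinase was the most abundant of the 7 transcripts per kilobase in every group, and it fell in all 3 resistant lines. PLAU (ENSG00000122861, hg38 chr10:73909177-73917496, plus strand) had 174, 206 and 198 CPM in EB-resistant cells, 228, 283 and 310 CPM in VC-resistant cells and 341, 407 and 443 CPM in DT-resistant cells, against 1113, 1040 and 1115 CPM in sensitive cells. No 2 of the 4 groups overlapped, and every resistant library lay below every sensitive one. The log2 fold change against sensitive was -2.50 ± 0.118 in the EB-resistant line (SE; adjusted p = 4.04e-10), -1.99 ± 0.116 in the VC-resistant line (adjusted p = 7.54e-09) and -1.46 ± 0.114 in the DT-resistant line (adjusted p = 9.35e-08). These and all later adjusted p-values come from edgeR's quasi-likelihood test with Benjamini-Hochberg adjustment over 17114 genes, called at 0.05. The lines also differed from each other: PLAU was lower in EB-resistant than in VC-resistant cells by a log2 fold change of -0.51 (adjusted p = 0.00133), and lower in VC-resistant than in DT-resistant cells by -0.54 (adjusted p = 0.00449). By level per kilobase, PLAU ranked 532 in EB-resistant, 370 in VC-resistant, 240 in DT-resistant and 62 in sensitive cells among the genes tested. The antisense lncRNA C10orf55 overlaps PLAU over 7528 bases and had 59 to 280 counts per library. The strand setting of the counting is not given in the sources used here.

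Tissue-type activator also fell in all 3 resistant lines. PLAT (ENSG00000104368, on chromosome 8) had 31.4, 34.8 and 28.4 CPM in EB-resistant cells, 26.5, 36.2 and 39.1 CPM in VC-resistant cells and 7.0, 16.5 and 21.4 CPM in DT-resistant cells, against 264, 246 and 210 CPM in sensitive cells. All 9 resistant libraries lay below the 3 sensitive ones, and the DT-resistant libraries lay below the other resistant ones, replicate 2 being the lowest. The log2 fold change was -2.93 ± 0.339 in the EB-resistant line (adjusted p = 5.66e-05), -2.82 ± 0.338 in the VC-resistant line (adjusted p = 8.79e-05) and -4.00 ± 0.359 in the DT-resistant line (adjusted p = 1.02e-05). Between EB-resistant and VC-resistant cells the difference of -0.11 ± 0.322 was not called (adjusted p = 0.796). PLAT was higher in VC-resistant than in DT-resistant cells by 1.18 ± 0.333 (adjusted p = 0.0408), but with the replicate number as a block, which pairs these lines, the adjusted p was 0.0522 and the difference was not called. It was also higher in EB-resistant than in DT-resistant cells by 1.08 ± 0.332 (adjusted p = 0.0199), a call lost without EB-resistant replicate 5 (adjusted p = 0.0585) and in a fit to those 6 libraries alone (adjusted p = 0.0614).

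The urokinase receptor fell in all 3 lines and was lowest in the EB-resistant line. PLAUR (ENSG00000011422, chr19:43646095-43670547, minus strand), a membrane-anchored receptor that concentrates urokinase at the cell surface, had 35.0, 37.3 and 36.0 CPM in EB-resistant cells, 97.7, 104 and 121 CPM in VC-resistant cells and 74.1, 95.2 and 96.4 CPM in DT-resistant cells, against 223, 209 and 168 CPM in sensitive cells. The EB-resistant libraries were tightly grouped below all others, and the VC-resistant libraries lay just above the DT-resistant ones without overlap. The log2 fold change against sensitive was -2.47 ± 0.123 in the EB-resistant line (adjusted p = 7.93e-10), -0.89 ± 0.117 in the VC-resistant line (adjusted p = 1.87e-05) and -1.17 ± 0.118 in the DT-resistant line (adjusted p = 1.16e-06). PLAUR was lower in EB-resistant cells than in VC-resistant cells by -1.58 ± 0.120 (adjusted p = 8.32e-08) and than in DT-resistant cells by -1.29 ± 0.120 (adjusted p = 5.57e-07). The difference of 0.28 ± 0.117 between VC-resistant and DT-resistant cells was not called (adjusted p = 0.124).

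**Figure D1:**
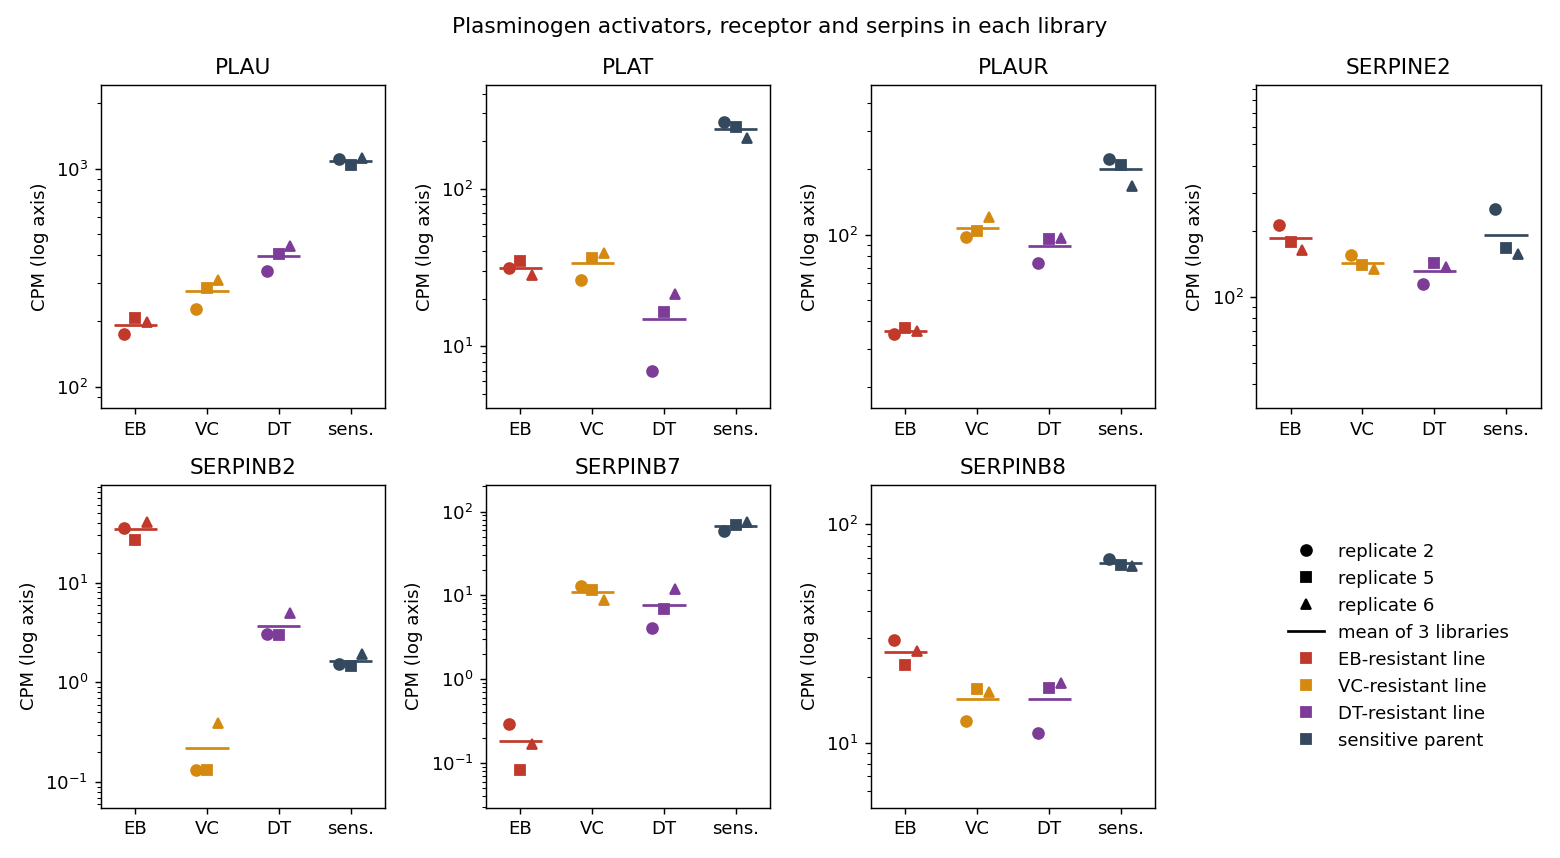
CPM of the 7 genes on log axes, 1 panel a gene, with 1 point for each of the 12 libraries, the symbol giving the replicate number and the bar the mean of 3 libraries. PLAU, PLAT, PLAUR, SERPINB7 and SERPINB8 are highest in the sensitive parent, SERPINB2 is highest in the EB-resistant line at 26.5 to 40.5 CPM, and the EB-resistant and sensitive libraries overlap in SERPINE2.

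Protease nexin-1 had the smallest fold changes of the 7 genes against sensitive. SERPINE2 (ENSG00000135919, chr2:223975045-224039318, minus strand) had 215, 179 and 164 CPM in EB-resistant cells, 156, 140 and 135 CPM in VC-resistant cells and 115, 143 and 137 CPM in DT-resistant cells, against 254, 167 and 158 CPM in sensitive cells. The EB-resistant and sensitive libraries overlapped, and sensitive replicate 2 stood above the other sensitive libraries. The difference of -0.05 ± 0.166 in the EB-resistant line was not called (adjusted p = 0.809). In the VC-resistant line the log2 fold change was -0.43 ± 0.167 (adjusted p = 0.0461), a call that was lost in 9 of the 12 fits that each left out 1 library, with a log2 fold change of -0.18 and an adjusted p of 0.1996 without sensitive replicate 2. In the DT-resistant line it was -0.55 ± 0.167 (adjusted p = 0.0133), lost without DT-resistant replicate 2 (adjusted p = 0.0773). SERPINE2 was higher in EB-resistant than in DT-resistant cells by 0.50 ± 0.167 (adjusted p = 0.0228), lost without EB-resistant replicate 2 (adjusted p = 0.0826) or DT-resistant replicate 2 (adjusted p = 0.114). The differences of 0.38 ± 0.167 between EB-resistant and VC-resistant cells (adjusted p = 0.0723) and 0.12 ± 0.167 between VC-resistant and DT-resistant cells (adjusted p = 0.691) were not called.

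PAI-2 moved in different directions in the 3 lines. SERPINB2 (ENSG00000197632, chr18:63871692-63903888, plus strand) had 35.3, 26.5 and 40.5 CPM in EB-resistant cells, 0.131, 0.132 and 0.392 CPM in VC-resistant cells and 3.02, 2.97 and 4.95 CPM in DT-resistant cells, against 1.55, 1.45 and 1.94 CPM in sensitive cells. No 2 groups overlapped. The VC-resistant values rest on 5, 6 and 21 counts, whereas the EB-resistant libraries held 1693, 1300 and 1929 counts. The log2 fold change against sensitive was 4.37 ± 0.266 in the EB-resistant line (adjusted p = 1.16e-08), -2.81 ± 0.386 in the VC-resistant line (adjusted p = 3.68e-05) and 1.15 ± 0.266 in the DT-resistant line (adjusted p = 0.00208). Between resistant lines the log2 fold change was 7.19 ± 0.340 for EB-resistant against VC-resistant cells (adjusted p = 1.94e-09), 3.23 ± 0.246 for EB-resistant against DT-resistant cells (adjusted p = 1.58e-07) and -3.96 ± 0.358 for VC-resistant against DT-resistant cells (adjusted p = 6.51e-06). Without VC-resistant replicate 6, which held 21 of the 32 VC-resistant counts, the VC-resistant change against sensitive was -3.60, the difference of EB-resistant from VC-resistant cells 7.98, and that of VC-resistant from DT-resistant cells -4.76.

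SERPINB2 is also made by monocytes, macrophages and keratinocytes, and marker genes of other cell types were read beside it. The 4 leukocyte markers in the table, of 6 listed, summed to 1.42 to 1.49 CPM in EB-resistant, 0.367 to 0.506 CPM in VC-resistant, 0.345 to 0.749 CPM in DT-resistant and 0.827 to 0.953 CPM in sensitive cells. Of these, PTPRC (CD45) averaged 0.753 ± 0.284 CPM in EB-resistant and 0.0145 ± 0.0126 CPM in sensitive cells (SD, n = 3 each), and it rose (log2 fold change 5.495 ± 0.681, adjusted p = 6.02e-06). CSF1R averaged 0.187 CPM in EB-resistant and 0.582 CPM in sensitive cells and fell (adjusted p = 0.00422), and CD14 (adjusted p = 0.0547) and ITGAM (adjusted p = 0.501) were not called. CD3E had no row in the table. The 2 keratinocyte markers in the table, of 6 listed, were KRT10 and TP63, and summed to 21.3 to 23.8 CPM in EB-resistant, 16.1 to 19.2 CPM in VC-resistant, 18.6 to 23.4 CPM in DT-resistant and 17.6 to 19.2 CPM in sensitive cells. All 7 fibroblast markers were in the table and summed to 129 to 164 CPM in EB-resistant, 12.1 to 30.7 CPM in VC-resistant, 110 to 217 CPM in DT-resistant and 1.83 to 2.52 CPM in sensitive cells, while DCN was at 0 in the sensitive libraries. LUM and PDGFRB carried most of this. In EB-resistant, VC-resistant, DT-resistant and sensitive cells LUM averaged 49.8, 14.7, 145 and 0.916 CPM. PDGFRB averaged 74.5, 2.60, 2.49 and 0.784 CPM in the same order. COL1A1 averaged 17.9, 0.603, 3.57 and 0.325 CPM, and COL3A1 1.16, 0.398, 1.13 and 0.0646 CPM, in that order. Of the 4 fibroblast markers tested, 4 rose in the EB-resistant, 3 in the VC-resistant and 4 in the DT-resistant line, and 0 fell. Of all genes tested, 28.5%, 27.6% and 29.8% rose in these lines. COL1A2, PDGFRA and DCN had too few counts to be tested. PDGFRA averaged 0.0960 CPM in EB-resistant, 0.0212 CPM in VC-resistant and 0.0230 CPM in DT-resistant cells, against 0.0706 CPM in sensitive cells. The 5 endothelial markers summed to 1.24 to 1.69 CPM in EB-resistant, 2.43 to 3.72 CPM in VC-resistant, 4.84 to 7.38 CPM in DT-resistant and 1.59 to 1.96 CPM in sensitive cells. VWF carried most of this, averaging 2.90 CPM in VC-resistant, 6.02 CPM in DT-resistant and 0.983 CPM in sensitive cells. VWF rose in the VC-resistant and DT-resistant lines (adjusted p = 1.45e-04 and 7.19e-07). PECAM1 fell, with log2 fold changes of -3.47, -5.61 and -3.63 in the EB-resistant, VC-resistant and DT-resistant lines. TEK rose in the EB-resistant line only, and CDH5 and KDR had too few counts to be tested. The part of other cell types in these results was not tested.

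SERPINB7 (ENSG00000166396, chr18:63752935-63805376, plus strand), an inhibitor best known from the epidermis, where its loss causes a palmoplantar keratoderma, fell in all 3 lines and had the largest change of the 7 genes in the EB-resistant line. It had 0.292, 0.0814 and 0.168 CPM in EB-resistant cells, 12.9, 11.5 and 8.88 CPM in VC-resistant cells and 4.06, 6.94 and 11.8 CPM in DT-resistant cells, against 58.6, 69.5 and 75.2 CPM in sensitive cells. The EB-resistant libraries, with 14, 4 and 8 counts, lay far below all others, and the VC-resistant and DT-resistant libraries overlapped. The log2 fold change was -8.54 ± 0.497 in the EB-resistant line (adjusted p = 1.58e-07), -2.61 ± 0.319 in the VC-resistant line (adjusted p = 5.85e-05) and -3.16 ± 0.329 in the DT-resistant line (adjusted p = 1.48e-05). It was lower in EB-resistant cells than in VC-resistant cells by -5.92 ± 0.510 (adjusted p = 3.43e-06) and than in DT-resistant cells by -5.38 ± 0.520 (adjusted p = 9.08e-06). VC-resistant and DT-resistant cells differed by 0.55 ± 0.320, which was not called (adjusted p = 0.306), though without DT-resistant replicate 6 the difference was 1.01 (adjusted p = 0.0167).

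SERPINB8 (ENSG00000166401, chr18:63970029-64019779, plus strand), an intracellular-type serpin that inhibits furin in vitro, fell in each line. It had 29.5, 22.6 and 26.3 CPM in EB-resistant cells, 12.6, 17.7 and 17.1 CPM in VC-resistant cells and 11.02, 17.7 and 18.7 CPM in DT-resistant cells, against 69.4, 65.5 and 64.2 CPM in sensitive cells. The EB-resistant libraries lay between the sensitive libraries and the other resistant ones, and the VC-resistant and DT-resistant libraries overlapped. The log2 fold change was -1.34 ± 0.176 in the EB-resistant line (adjusted p = 2.24e-05), -2.07 ± 0.181 in the VC-resistant line (adjusted p = 9.33e-07) and -2.07 ± 0.181 in the DT-resistant line (adjusted p = 6.68e-07). EB-resistant cells were higher than VC-resistant cells by 0.72 ± 0.178 (adjusted p = 0.00334) and than DT-resistant cells by 0.73 ± 0.178 (adjusted p = 0.00345). VC-resistant and DT-resistant cells differed by 0.00 ± 0.180 (adjusted p = 1).

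**Figure D2:**
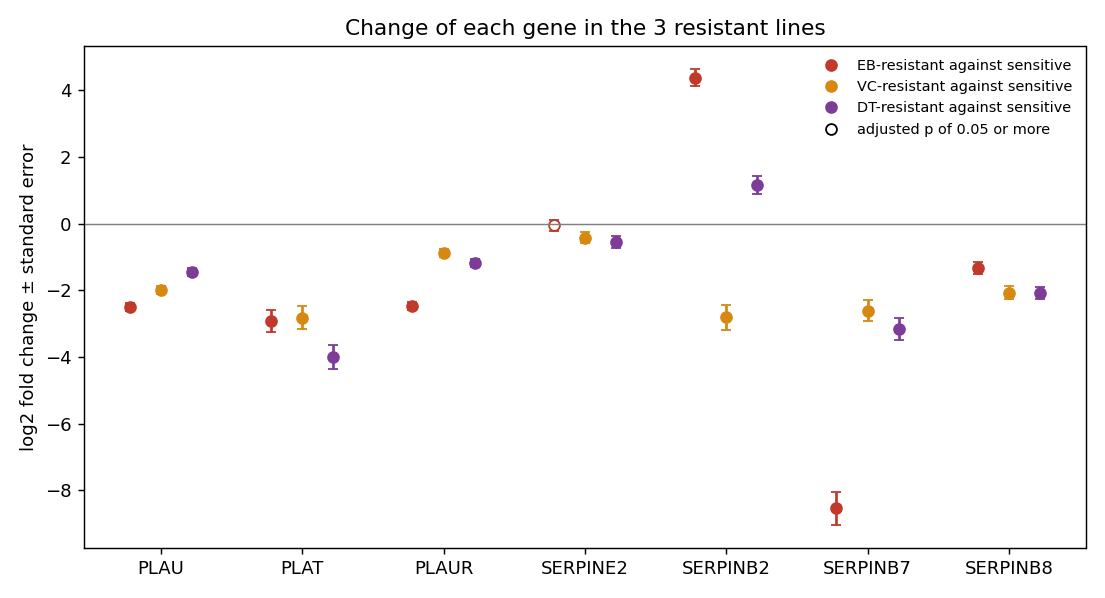
log2 fold change with its standard error for each gene in the EB-resistant, VC-resistant and DT-resistant lines against sensitive, with open symbols where the adjusted p was 0.05 or more. SERPINB2 spans 4.37 in the EB-resistant line to -2.81 in the VC-resistant line, SERPINB7 reaches -8.54 in the EB-resistant line, and PLAU, PLAT, PLAUR and SERPINB8 are below 0 in each.

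Counted together, 1 of the 7 genes rose and 5 fell in the EB-resistant line, where 56.1% of all genes tested were called, 28.5% up and 27.6% down. In the VC-resistant line 0 rose and 7 fell, where 55% of all genes were called, 27.6% up and 27.4% down. In the DT-resistant line 1 rose and 6 fell, where 59.1% of all genes were called, 29.8% up and 29.3% down. The median log2 fold change of the 7 genes was -2.47 in the EB-resistant, -2.07 in the VC-resistant and -1.46 in the DT-resistant line, while the median of all genes lay between -0.00535 and 0.000859 over the 6 comparisons. The 3 comparisons share the sensitive libraries. In EB-resistant against VC-resistant cells 2 rose and 3 fell, where 58.4% of all genes were called, 29.6% up and 28.8% down. In EB-resistant against DT-resistant cells 4 rose and 3 fell, where 57.2% were called, 28.4% up and 28.8% down. In VC-resistant against DT-resistant cells 1 rose and 2 fell, where 15.8% were called, 7.08% up and 8.71% down. In the DT-resistant line replicate 2 was the lowest library for 6 of the 7 genes and replicate 6 the highest for 6. This order was not compared with that of all genes tested, so nothing particular to the 7 is read from it.

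Per kilobase of exon, the order of the transcripts differed between the groups. In EB-resistant cells PLAU averaged 65.3 CPM per kb, above SERPINE2 at 20.8 CPM per kb and SERPINB2 at 12.4 CPM per kb. PLAUR at 8.10 CPM per kb, SERPINB8 and PLAT followed, and SERPINB7 was last at 0.0684 CPM per kb. In VC-resistant cells PLAU was first at 92.8 CPM per kb and SERPINB2 last at 0.0797 CPM per kb, and in DT-resistant cells PLAU was first at 135 CPM per kb and SERPINB2 last at 1.33 CPM per kb. In sensitive cells PLAU averaged 369 CPM per kb, followed by PLAUR at 44.8 CPM per kb, PLAT, SERPINB7 at 25.7 CPM per kb, SERPINE2, SERPINB8 and SERPINB2, the last at 0.600 CPM per kb.

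The ratio of urokinase to PAI-2 transcripts within each library was lowest in the EB-resistant line. PLAU over SERPINB2, per kilobase, was 4.54 to 7.25 in EB-resistant, 736 to 1991 in VC-resistant, 83.1 to 127 in DT-resistant and 535 to 670 in sensitive libraries. PLAU over PLAT had a median of 15.6 in EB-resistant, 20.9 in VC-resistant, 65.1 in DT-resistant and 11.1 in sensitive libraries. PLAU over PLAUR was 7.50 to 8.36 in EB-resistant, 3.52 to 4.10 in VC-resistant, 6.47 to 6.96 in DT-resistant and 7.53 to 10.03 in sensitive libraries, so that the VC-resistant libraries lay apart from the others. These are ratios of RNA levels and were not tested.

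**Figure D3:**
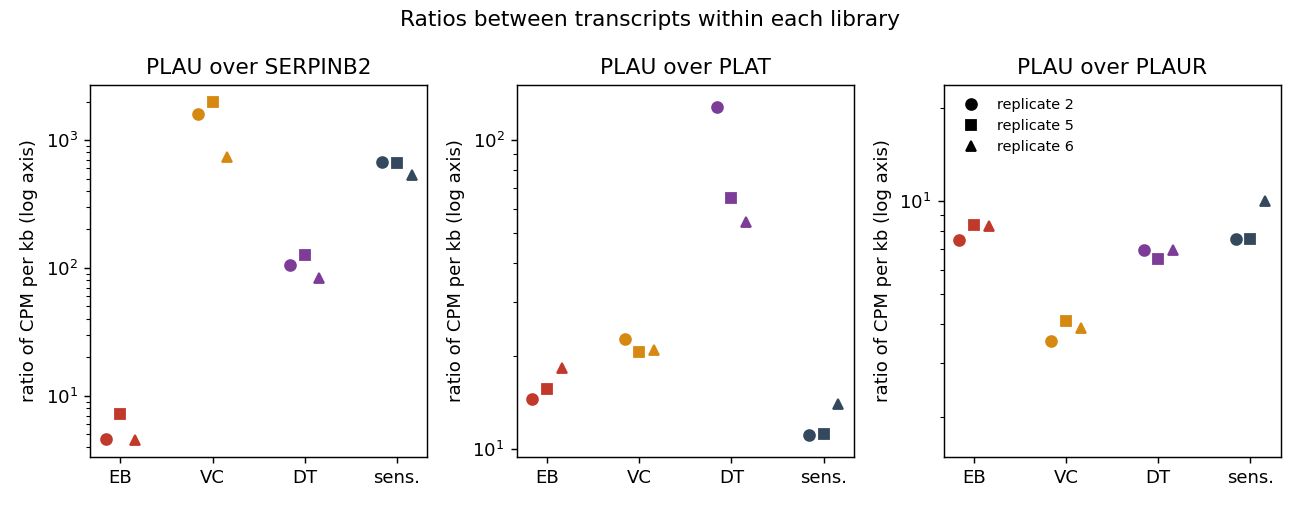
Ratio of CPM per kb of PLAU to SERPINB2, PLAT and PLAUR in each of the 12 libraries, on log axes, with the symbol giving the replicate number. In the first panel the EB-resistant libraries lie lowest, at 4.54 to 7.25, and the DT-resistant libraries next, at 83.1 to 127.

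The 3 clade B genes occupy 267 kb of chromosome 18, with 66.3 kb between SERPINB7 and SERPINB2 and 66.1 kb between SERPINB2 and SERPINB8. In the EB-resistant line the middle gene rose while its neighbours on either side fell, with log2 fold changes of -8.54, 4.37 and -1.34 in chromosomal order. Of 8 other clade B neighbours listed, 4 had a row in the table and none had enough counts to be tested. SERPINB4, a squamous cell antigen, had 0 counts in the EB-resistant and VC-resistant libraries and 1 count over the DT-resistant ones, against 41, 18 and 7 counts in sensitive libraries. Set against a floor of 3 counts per library it was at least 7.51-fold lower in EB-resistant and at least 6.98-fold lower in VC-resistant cells. These bounds rest on sensitive replicate 2, which held 41 of the 66 sensitive counts. Without it they were at least 4.09-fold in EB-resistant and at least 3.81-fold in VC-resistant cells. SERPINB3 and SERPINB4 are near-identical copies, so their counts are uncertain. SERPINB10 overlaps SERPINB2 on the same strand and had 0 to 4 counts, and HMSD overlaps SERPINB8 on the same strand and had 0 to 8 counts.

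Of the genes flanking the cluster, 8 were tested, and all 8 lie on the same side of it, before SERPINB7. None past SERPINB8 was among them. In the EB-resistant line 0 rose and 6 fell, with a median log2 fold change of -0.42, where 27.6% of all genes tested fell. In the VC-resistant line 0 rose and 3 fell (median -0.22), where 27.4% of all genes fell, and in the DT-resistant line 0 rose and 5 fell (median -0.56), where 29.3% of all genes fell. BCL2, the inhibitor of apoptosis, had a log2 fold change of -1.85 ± 0.137 in the EB-resistant line (adjusted p = 2.76e-08), -0.18 ± 0.130 in the VC-resistant line (adjusted p = 0.262) and -0.61 ± 0.131 in the DT-resistant line (adjusted p = 9.33e-04). PHLPP1, a phosphatase that acts on AKT, fell by 1.58 in the EB-resistant and by 0.74 in the DT-resistant line on the log2 scale, and was at -0.05 in the VC-resistant line (adjusted p = 0.721). KDSR, an enzyme of sphingolipid synthesis, fell by 1.18, 0.26 and 0.50, and VPS4B, an ESCRT ATPase, by 0.41, 0.69 and 0.45, in the EB-resistant, VC-resistant and DT-resistant lines. RELCH fell by 0.91 in the VC-resistant and 0.90 in the DT-resistant line and was at -0.11 in the EB-resistant line (adjusted p = 0.422). PIGN fell by 0.44 in the EB-resistant line and was not called in the others. ZCCHC2 was called in the EB-resistant line at -0.37 (adjusted p = 0.0488), a call lost in 9 of the alternatives tried, and TNFRSF11A, with group means below 1 CPM, was not called in any line.

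**Figure D4:**
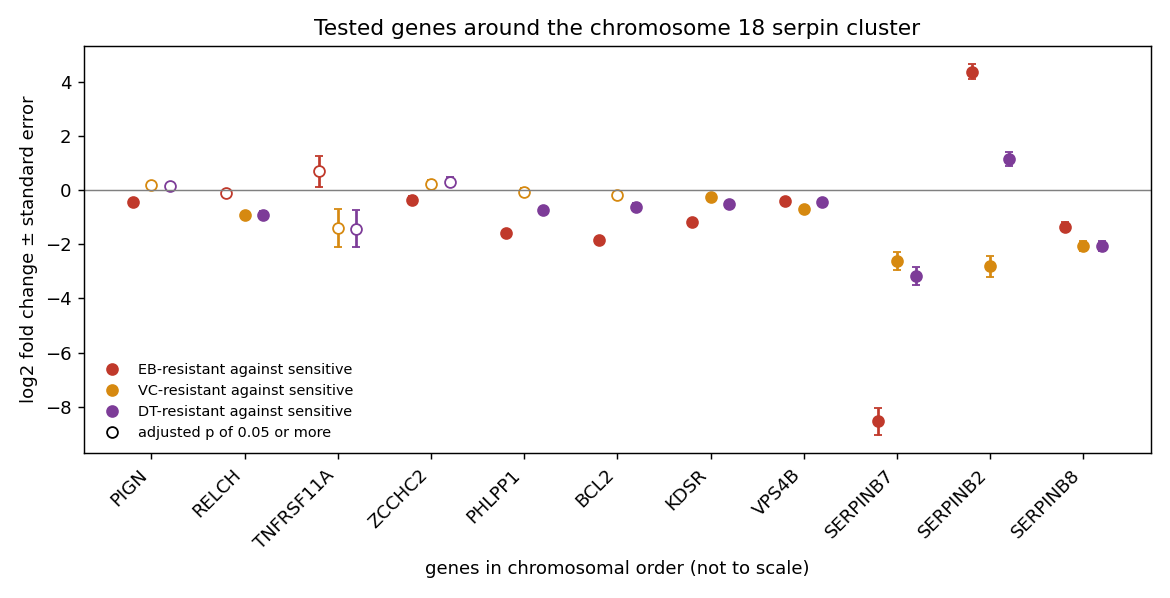
log2 fold change with its standard error against sensitive for the tested genes of the chromosome 18 serpin cluster and of its flank before SERPINB7. Genes are in chromosomal order and not to scale, with open symbols where the adjusted p was 0.05 or more. The flanking genes called lie between -1.85 and -0.26, and SERPINB2 is the only gene shown that rose, at 4.37 in the EB-resistant and 1.15 in the DT-resistant line.

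Beyond these 7 genes, 28 others of the plasminogen system were listed, of which 20 had a row in the table and 19 were tested. In the EB-resistant line 8 rose and 7 fell, with a median log2 fold change of 0.31, where 56.1% of all genes tested were called. In the VC-resistant line 4 rose and 6 fell (median 0.04), where 55% were called, and in the DT-resistant line 8 rose and 6 fell (median -0.02), where 59.1% were called. The count in the VC-resistant line, 10 of 19, is close to the share of all genes.

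LRP1, the endocytic receptor that clears complexes of activators with serpins, averaged 120 ± 25.5 CPM in EB-resistant, 9.48 ± 2.64 CPM in VC-resistant, 8.96 ± 1.88 CPM in DT-resistant and 16.4 ± 6.11 CPM in sensitive cells (SD, n = 3 each). It rose in the EB-resistant line by a log2 fold change of 2.87 ± 0.305 (adjusted p = 1.98e-05). Its changes of -0.80 in the VC-resistant line (adjusted p = 0.0460) and -0.87 in the DT-resistant line (adjusted p = 0.0305) lost their calls in 10 and 4 alternatives. VLDLR, a related clearance receptor, fell by 1.12 in the EB-resistant line (adjusted p = 3.22e-04) and was not called in the others. ITGB3, the integrin subunit that pairs with ITGAV to bind vitronectin, averaged 1.93 ± 0.365 CPM in EB-resistant, 39.7 ± 12.0 CPM in VC-resistant, 25.2 ± 5.84 CPM in DT-resistant and 3.30 ± 0.875 CPM in sensitive cells (SD, n = 3 each). It rose by 3.58 ± 0.265 in the VC-resistant line (adjusted p = 4.02e-07) and by 2.93 ± 0.261 in the DT-resistant line (adjusted p = 1.40e-06). Its change of -0.77 in the EB-resistant line (adjusted p = 0.0362) lost the call in 6 alternatives. MRC2, a collagen receptor that associates with PLAUR, rose by 1.11 in the DT-resistant line (adjusted p = 2.58e-04), was at 0.48 in the EB-resistant line (adjusted p = 0.0394, lost in 9 alternatives) and at 0.11 in the VC-resistant line (adjusted p = 0.638).

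Of the listed genes, 3 more passed the size of 1 on the log2 scale in some line while staying at or below 0.872 CPM in every library. VTN (vitronectin) was called at 3.22 in the VC-resistant line (adjusted p = 0.00132) and 3.93 in the DT-resistant line (adjusted p = 1.50e-04), on 8, 29 and 21 counts in VC-resistant and 41, 21 and 31 counts in DT-resistant libraries, against 3, 0 and 3 counts in sensitive libraries. ST14 (matriptase) was called at 4.17 in the EB-resistant line (adjusted p = 1.66e-04), on 19, 33 and 28 counts, against 2, 2 and 0 counts in sensitive libraries. SERPINA5 (protein C inhibitor) was called at -3.51 in the VC-resistant line (adjusted p = 0.00295) and -3.51 in the DT-resistant line (adjusted p = 0.00265), on 2, 0 and 0 counts in VC-resistant and 0, 1 and 1 counts in DT-resistant libraries, against 7, 15 and 6 counts in sensitive libraries. On the summed counts its ratio to sensitive was 0.0741 in VC-resistant cells (95% exact interval 0.00856 to 0.294) and 0.0749 in DT-resistant cells (0.00864 to 0.297), intervals that cover counting error only. Without VC-resistant replicate 2 the SERPINA5 change in that line was -6.23 and without VC-resistant replicate 6 it was -2.87, and without sensitive replicate 5 the VTN change was 2.63 in the VC-resistant and 3.34 in the DT-resistant line.

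**Figure D5:**
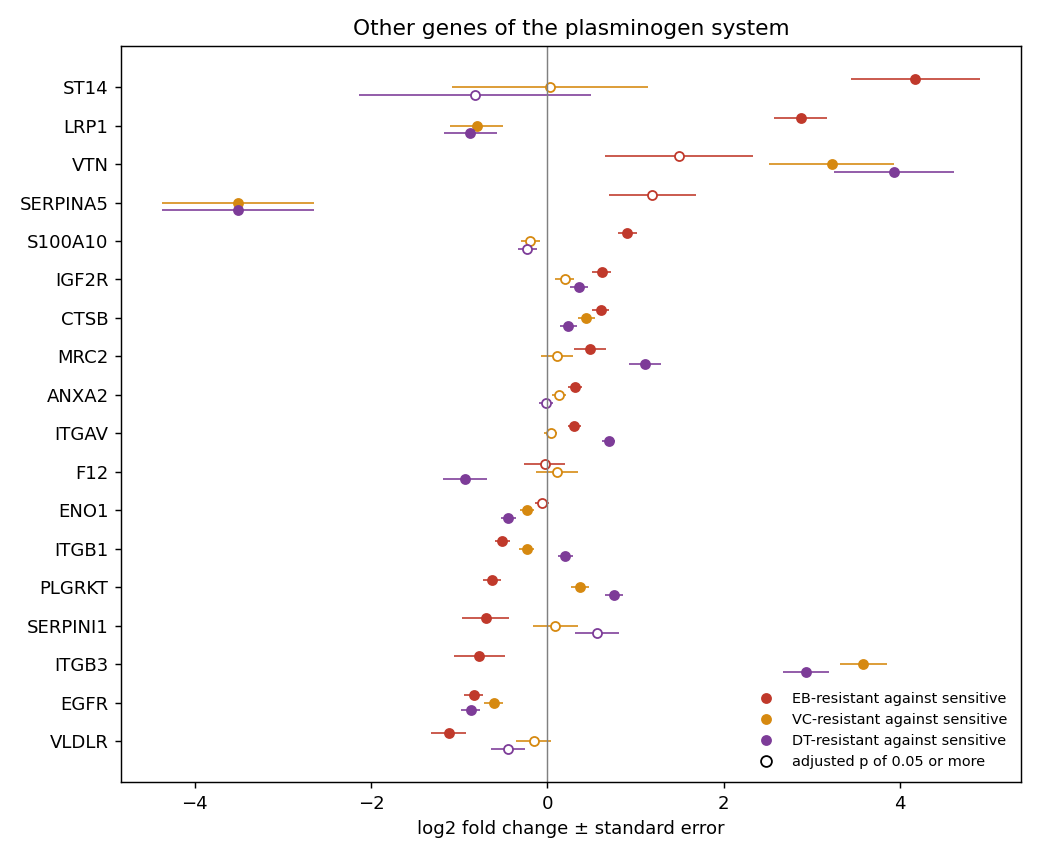
log2 fold change with its standard error against sensitive for 18 tested genes of the plasminogen system outside the 7, with open symbols where the adjusted p was 0.05 or more. EGFR is below 0 in each line, LRP1 is at 2.87 in the EB-resistant line, and ITGB3 is at 3.58 in the VC-resistant and 2.93 in the DT-resistant line.

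Among 19 serpins outside these lists, 9 had a row and 7 were tested. In the EB-resistant line 4 rose and 0 fell, in the VC-resistant line 2 rose and 3 fell, and in the DT-resistant line 3 rose and 1 fell. Of all genes tested, 56.1% were called in the EB-resistant, 55% in the VC-resistant and 59.1% in the DT-resistant line, and nothing particular to these serpins is read from the counts. SERPINB1, a clade B inhibitor of neutrophil proteases encoded on chromosome 6, was the 1 gene called with a change of at least 1 in every line. It averaged 63.8 ± 7.57 CPM in EB-resistant, 65.7 ± 2.85 CPM in VC-resistant, 63.9 ± 4.20 CPM in DT-resistant and 28.8 ± 2.71 CPM in sensitive cells (SD, n = 3 each), and rose by 1.15, 1.19 and 1.15 on the log2 scale in the EB-resistant, VC-resistant and DT-resistant lines (adjusted p = 1.05e-07, 1.36e-07 and 1.33e-07).

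Over the 12 libraries, which fall into 4 groups, the transcript levels most like those of each gene were ranked by Pearson correlation of log2 CPM among 12987 genes. PLAU was most like INPP5A (r = 0.994), PRKAA1 and INPP5F, PLAUR most like PTPRN2 (r = 0.992), MSN and EMP1, and PLAT most like PRKX (r = 0.983) and C2orf69. SERPINB7 was most like CCND1 (r = 0.991), which encodes cyclin D1, NIPAL1 and SEMA7A, and SERPINB8 most like MED22 (r = 0.988), RBM6 and SENP3. SERPINB2 was most like C2orf88 (r = 0.975), USP33 and SSX1, and SERPINE2 had the loosest match, LINC02405 (r = 0.903), before ACADVL and ZSCAN30. Among the 7 genes themselves, PLAUR and SERPINB7 were most alike (r = 0.974), followed by PLAT and SERPINB8 (r = 0.930). These values describe the spread between groups and carry no test.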

How the data were processed

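Polyadenylated RNA of 12 libraries was sequenced as stranded, paired-end libraries, per the labels' protocols. Per the submitters' processing notes the tools were bcl2fastq 2.20.0, STAR 2.7.10b, featureCounts 2.0.1 and DESeq2 1.38.3, with genome build hg38. For the annotation release and the strand setting of counting, nothing is stated in these sources. The authors deposited a table of read counts per gene, whose rows each total at least 11 counts, and a table of normalised counts, a signal that equals the count divided by 1 size factor per library within 0.0714. The counts were used for all tests.

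Genes were filtered with filterByExpr by group, scaled by TMM and fitted with 1 mean per group over the 12 libraries. The robust quasi-likelihood fit of edgeR 4.0.16, run under R 4.3.3 with limma 3.58.1, left 8 residual degrees of freedom. The 6 pairs of groups were tested, with Benjamini-Hochberg adjustment over 17114 genes and a threshold of 0.05. The standard error is the log2 fold change divided by the square root of F. Log2 CPM for the correlations used a prior count of 2 and genes with a mean of at least 1 CPM. No 2 libraries held identical counts.

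The members and gene lists were chosen with earlier results of these data known. All 7 members are named, with the 3 most alike genes of each. Plasminogen system genes are named where called with a log2 fold change of at least 1 in size against sensitive, other serpins where this held in all 3 lines, and chromosome 18 neighbours wherever they had a row. Some genes that met these rules are counted but not reported by name here. Deviations from group means in same-numbered libraries correlated at 0.151 to 0.337 between VC-resistant and DT-resistant lines, all over 0.1, so those numbers pair these lines. The main fit did not use this pairing, which entered only through the replicate block among the alternatives. In the other 5 comparisons the lowest such correlation was 0.00144 to 0.0445, so the numbers were not taken as pairs there. Alternatives were RLE scaling, no filter, DESeq2 1.42.0, only the 6 libraries compared, a replicate block, and leaving out each library. P-values measure the spread between experiments on 1 line per drug pair.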

Additional observations from a re-analysis of the deposited data

Results flagged for a closer look

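Differences of the 7 genes between resistant lines, each tested by its own contrast in edgeR's quasi-likelihood test, passed the threshold in 15 cases. Of all genes tested, 58.4% were called in EB-resistant against VC-resistant cells. The shares were 57.2% in EB-resistant against DT-resistant and 15.8% in VC-resistant against DT-resistant cells. EB-resistant against VC-resistant cells differed in SERPINB2 (log2 fold change 7.19), SERPINB7 (-5.92), PLAUR (-1.58), SERPINB8 (0.72) and PLAU (-0.51). EB-resistant against DT-resistant cells differed in SERPINB7 (-5.38), SERPINB2 (3.23), PLAUR (-1.29), PLAT (1.08), PLAU (-1.04), SERPINB8 (0.73) and SERPINE2 (0.50). In this contrast the PLAT call was lost without EB-resistant replicate 5 (adjusted p = 0.0585) and with those 6 libraries alone (0.0614). The SERPINE2 call was lost without EB-resistant replicate 2 (adjusted p = 0.0826) or DT-resistant replicate 2 (0.114). VC-resistant against DT-resistant cells differed in SERPINB2 (-3.96), PLAT (1.18, adjusted p = 0.0522 with the replicate block) and PLAU (-0.54). For SERPINB2 the direction against the sensitive parent itself differed, being up in the EB-resistant and DT-resistant lines and down in the VC-resistant line.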

How the results depend on the processing

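No called difference changed direction in any alternative. Of 714 values of the 7 genes under alternatives, 674 kept direction and side of the threshold, 28 lost the call, 4 gained it and 8 changed sign while uncalled; for the other named genes, whose alternatives were chosen after seeing the data, these numbers were 852, 38, 14 and 8. Of the 7 genes, 6 were called in the EB-resistant line in each fit that left out 1 library, 6 to 7 in the VC-resistant and 6 to 7 in the DT-resistant line, against sensitive. The lost calls were of SERPINE2 and PLAT. SERPINE2 in VC-resistant cells against sensitive lost its call without the filter (adjusted p = 0.0867) and with the 6 libraries only (adjusted p = 0.0698). PLAT in VC-resistant against DT-resistant cells lost it without the filter (0.0703), with the 6 libraries (0.0969), with the replicate block (log2 fold change 1.21, adjusted p = 0.0522) and in 9 of 12 fits without 1 library (to 0.134). SERPINE2 in EB-resistant against VC-resistant cells, uncalled at 0.38 (adjusted p = 0.0723), was called by DESeq2 (0.0346), with the 6 libraries (0.00694) and without sensitive replicate 2 (0.00703). The block changed no other call among the 7 genes.

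Signs changed as follows. SERPINB8 in VC-resistant against DT-resistant cells was -0.00320 with RLE, -0.00453 without the filter, -0.00494 with DESeq2 and -0.20 to 0.14 without 1 library. SERPINE2 in EB-resistant cells against sensitive ranged over -0.17 to 0.19 without 1 library. In VC-resistant cells against sensitive, ST14 was -0.00609 with DESeq2 and -0.0286 with the replicate block. Without 1 library, ST14 ranged over -3.50 to 0.57, PHLPP1 over -0.17 to 0.039, VLDLR over -0.34 to 0.073 and MRC2 over -0.013 to 0.30. The genes called between VC-resistant and DT-resistant cells numbered 2702, and 1722 to 2879 without 1 library, lowest without VC-resistant replicate 6. In the other alternatives they numbered 1913 to 3514. Of the plasminogen system list, 6 genes were called in VC-resistant cells with the 6 libraries only, against 10. The cause was not tested. Counts of 4 to 21 limit SERPINB7 in EB-resistant and SERPINB2 in VC-resistant libraries.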
